A study of Mus musculus with 8 samples.

Results

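Collagen IV, the heparan sulfate proteoglycans and the nidogens are the basement membrane components that surround or join the laminin sheet. Of these, 9 genes were followed: the collagen IV chains Col4a1, Col4a2, Col4a4 and Col4a5, collagen XVIII (Col18a1), perlecan (Hspg2), agrin (Agrn) and the nidogens Nid1 and Nid2. They were chosen by name (COL4A1, COL4A2, COL4A4, COL4A5, COL18A1, HSPG2, AGRN, NID1 and NID2 in the capitals of the count table), and all 9 were found among the 13937 genes of the count table and were kept among the 13509 genes tested. The libraries are bulk RNA sequencing of primary astrocytes from the brains of C57BL/6 pups at postnatal day 1, either WT or RGC-32 KO (here KO). RGC-32, the product of Rgcc, is a mediator of TGF-β signaling, and the knockout was carried by the animals from which the cells were taken, with WT littermates as controls; the allele is not given in the sources used here. The cells of all groups were grown in serum, freed of loosely attached cells by shaking and then kept without serum overnight. They were either left untreated (control) or stimulated for 24 h with TGF-β at 10 ng/ml, which made 4 groups of 2 libraries: WT control, WT TGF-β, KO control and KO TGF-β. The 2 libraries of a group are called biological replicates by the submitters, but nothing says whether they came from separate litters or cultures, so the p-values measure the spread between these libraries only.

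A basement membrane is a thin sheet of matrix that cells assemble at their surface. Collagen IV forms its covalent network, laminins form a second network, and nidogens and perlecan bind to both. Collagen IV molecules are triple helices built from the products of 6 genes, which lie in the genome as head-to-head pairs, and the chains of Col4a1 and Col4a2 make up the molecule present in nearly all basement membranes. In the brain, astrocyte endfeet rest on the basement membranes of blood vessels and of the pial surface, where agrin and perlecan carry heparan sulfate and anchor the dystroglycan complex.

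Total counts ran from 14920561 to 18956038 per library. Levels are given as CPM, counts scaled to a common library total with TMM factors, which allow a gene to be compared between libraries, and as FPKM, which are scaled to length and allow genes to be compared with each other. A gene was called up or down when its log2 fold change was 0.6 or more in either direction and its adjusted p under 0.05 in edgeR's quasi-likelihood test. The targeted gene, Rgcc, was read at 5.16 and 5.61 CPM in WT control, 11.9 and 23.1 in WT TGF-β, 3.89 and 1.66 in KO control, and 4.29 and 1.72 in KO TGF-β. Every KO library thus lay below every WT library, though none was at 0, and with TGF-β the WT level was 2.54 higher on the log2 scale (SE 0.48, adjusted p = 0.133). Of the 10 astrocyte markers listed, all were detected, with a summed level of 3333 to 5630 CPM. Oligodendrocyte lineage markers summed to 280 to 364 CPM, neuronal markers to 106 to 144 and ependymal and choroid plexus markers to 244 to 448, the last lower after TGF-β in each genotype. Microglia or macrophage markers summed to 1207 to 1618 CPM, and endothelial markers to 99.8 to 127 CPM in the control libraries and 67.8 to 80.5 after TGF-β, lower without overlap in each genotype, with Cldn5 and Emcn at no more than 0.0664 FPKM. The single endothelial markers did not all fall with their sum. Flt1 was called up in each genotype (log2 fold change 1.13 in WT and 0.63 in KO) and Esam in WT (1.58). Cdh5 was called down in each (-1.09 and -0.85) and Kdr in KO (-0.67).

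The sequences around the starts of 4 genes are shown because their genes stand for the main patterns below: the neighbours Col4a1 and Col4a2, which rose together, Hspg2, the member that was called between genotypes, and Nid1, which was not called in any comparison. Each is the RefSeq window of 300 bases on GRCm38.p6, from 250 bases before to 50 after the start of transcription, read on the gene's own strand. Capitals mark matches on either strand to the SMAD element CAGAC, the AP-1 site TGANTCA, the GC box GGGCGG or the CCAAT box. The Col4a1 window is chr8:11312777-11313076 (minus strand), that of Col4a2 chr8:11312555-11312854 (plus strand), that of Hspg2 chr4:137468553-137468852 (plus strand) and that of Nid1 chr13:13437352-13437651 (plus strand).
Col4a1: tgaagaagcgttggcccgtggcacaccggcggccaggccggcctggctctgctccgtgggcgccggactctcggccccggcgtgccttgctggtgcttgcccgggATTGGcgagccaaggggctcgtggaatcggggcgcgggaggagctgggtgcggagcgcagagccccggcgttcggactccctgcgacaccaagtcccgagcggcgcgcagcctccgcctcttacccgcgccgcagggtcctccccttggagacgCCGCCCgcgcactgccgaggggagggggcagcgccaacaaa
Col4a2: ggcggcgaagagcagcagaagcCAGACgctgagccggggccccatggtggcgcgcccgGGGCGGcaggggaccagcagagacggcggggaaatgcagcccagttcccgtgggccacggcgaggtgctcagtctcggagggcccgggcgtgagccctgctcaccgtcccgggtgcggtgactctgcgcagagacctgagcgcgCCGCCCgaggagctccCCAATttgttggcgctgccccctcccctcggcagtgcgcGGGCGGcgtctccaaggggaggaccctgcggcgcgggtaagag
Hspg2: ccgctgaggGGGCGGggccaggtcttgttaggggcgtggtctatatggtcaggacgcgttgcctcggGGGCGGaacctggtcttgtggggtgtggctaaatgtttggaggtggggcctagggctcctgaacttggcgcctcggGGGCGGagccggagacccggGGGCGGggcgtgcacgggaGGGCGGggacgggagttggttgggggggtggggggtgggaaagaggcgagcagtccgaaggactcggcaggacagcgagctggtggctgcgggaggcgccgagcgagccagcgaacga
Nid1: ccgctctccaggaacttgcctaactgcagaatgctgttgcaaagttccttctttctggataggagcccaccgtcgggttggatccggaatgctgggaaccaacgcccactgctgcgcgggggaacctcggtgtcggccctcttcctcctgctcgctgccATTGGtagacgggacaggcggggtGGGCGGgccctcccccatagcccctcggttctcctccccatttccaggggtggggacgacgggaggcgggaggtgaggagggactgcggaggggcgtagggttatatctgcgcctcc

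The windows of Col4a1 and Col4a2 share 78 bases, since the genes start 21 bases apart and are transcribed away from each other. Each of them holds 1 CCAAT box. The box of Col4a1 lies outside the shared bases, and that of Col4a2 reaches them only with its last base. The Col4a1 window has 1 GC box, and that of Col4a2 has 3 and 1 SMAD element. The GC box of Col4a1 lies in the shared bases and is the same site as the last of the 3 in Col4a2. In the Hspg2 window there were 5 GC boxes and none of the other motifs, and in that of Nid1 there were 1 GC box and 1 CCAAT box. Over 32851 windows of this length, 49.6% held the SMAD element, 7.81% the AP-1 site, 35.7% the GC box and 37.4% the CCAAT box, so single matches are common, and a match is a description of letters only. No promoter window was at hand for Nid2.

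Per length, Col4a1 was the most abundant member in every group, at 122 ± 1.20 FPKM in the WT control libraries, 213 ± 20.8 in WT TGF-β, 109 ± 9.36 in KO control and 170 ± 13.1 in KO TGF-β (SD, n = 2). Col4a2 followed in every group, at 78.4 ± 2.12, 142 ± 8.72, 66.5 ± 5.29 and 108 ± 9.07 FPKM in the same order. Behind them in WT control came Col18a1 (44.9 ± 8.40 FPKM), Col4a5 (41.0 ± 1.19), Nid1 (36.3 ± 2.42), Nid2 (35.3 ± 0.243), Agrn (34.5 ± 2.45), Hspg2 (17.8 ± 1.29) and Col4a4 (0.469 ± 0.0796). In that order Col18a1 could not be told from Col4a5, nor Nid1 from Nid2 or Nid2 from Agrn, because their libraries overlapped. Of the members, only Col4a4 lay below Hspg2 without stimulation. After TGF-β in WT, Hspg2, at 39.6 ± 2.08 FPKM, stood above both nidogens with no overlap. In KO TGF-β it reached 23.3 ± 0.653 FPKM and stayed below both nidogens.

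**Figure D1:**
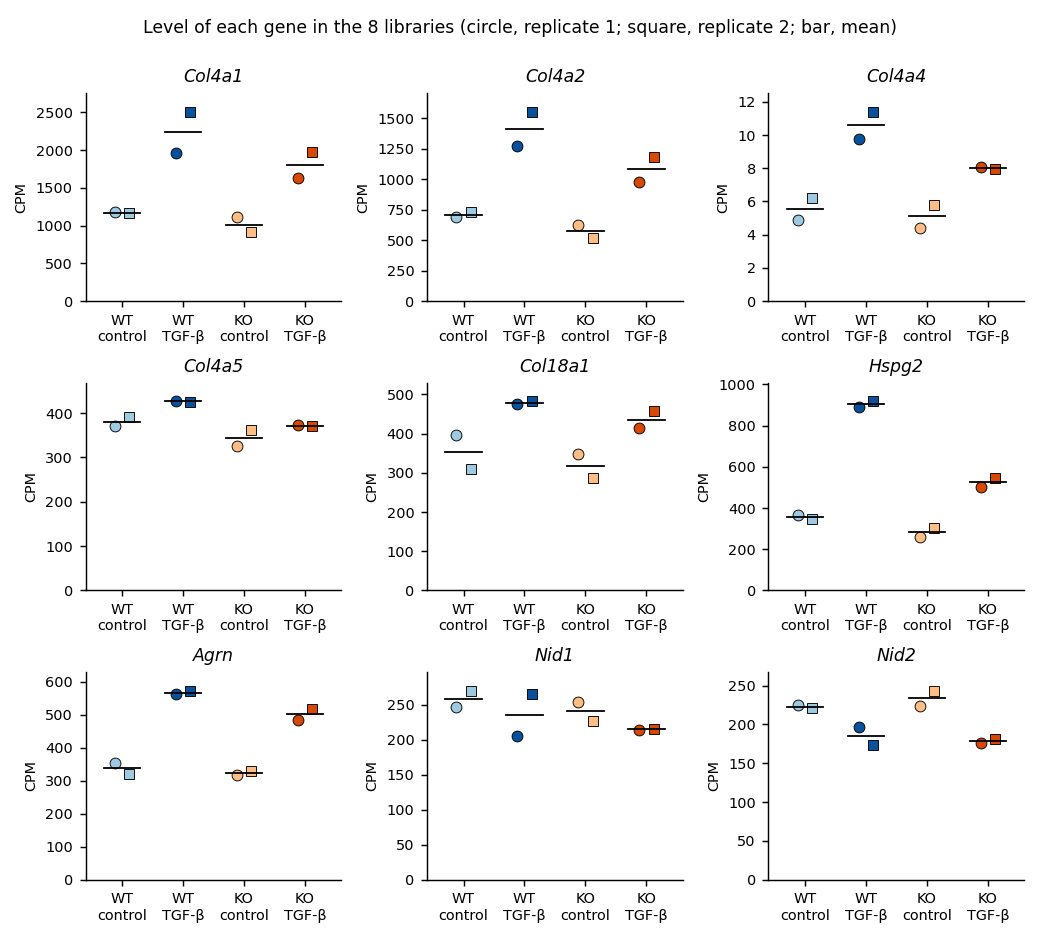
Level of each of the 9 genes (y axis, CPM from 0) in the 4 groups, with 1 point per library and a bar at the group mean. Hspg2 separates into 4 levels, with 889 and 918 CPM in WT TGF-β against 503 and 545 in KO TGF-β. Nid1 overlaps between the WT groups and between the genotypes in each state.

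TGF-β raised the major collagen IV chains in both genotypes, to nearly the same extent for both partners of the pair. Col4a1 (chr8:11198423-11312826, minus strand, GRCm38) encodes the chain that supplies most of the collagen IV molecule it forms with the chain of Col4a2. It was read at 1184 and 1164 CPM in WT control and at 1966 and 2504 in WT TGF-β. In KO astrocytes it was read at 1112 and 911 CPM in control and at 1628 and 1979 after TGF-β. The treated libraries lay above the control libraries in each genotype, and the lower WT TGF-β library lay within the range of KO TGF-β. On the log2 scale the rise was 0.93 in WT (SE 0.15, adjusted p = 0.00335) and 0.83 in KO (SE 0.15, adjusted p = 0.00606), and Col4a1 lost the KO call without KO TGF-β replicate 2 (0.67, adjusted p = 0.0502). In bulk RNA a change in the number of cells of a type cannot be told apart from a change in RNA per cell, here and below.

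Col4a2 (chr8:11312805-11449287, plus strand) encodes the partner chain of the same molecule. Its levels were 688 and 734 CPM in WT control, 1273 and 1552 in WT TGF-β, 628 and 517 in KO control, and 976 and 1187 in KO TGF-β. None of the 4 groups overlapped. It rose by 0.99 (SE 0.14, adjusted p = 0.00189) on the log2 scale in WT, and by 0.92 (SE 0.14, adjusted p = 0.00316) in KO. The ratio of Col4a2 to Col4a1 in FPKM stayed between 0.608 and 0.684 in all 8 libraries while both genes rose. Across the 8 libraries their log2 CPM correlated at r = 0.995 (Pearson), a description over libraries that share the same 4 groups. The exons of the 2 genes share 22 bases on opposite strands, which unstranded reads cannot assign, or 0.332% of the exonic bases of Col4a2.

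The minor chains of the glomerular type also rose, from a far lower level. Col4a4 (chr1:82448423-82586849, minus strand), whose chain is known from the kidney filter, was read at 4.90 and 6.21 CPM in WT control and at 9.79 and 11.4 in WT TGF-β. In KO it was read at 4.40 and 5.80 CPM in control and at 8.11 and 7.93 after TGF-β. All treated libraries lay above all control libraries, and the WT TGF-β libraries above those of KO TGF-β. These levels rest on 69 to 178 reads per library. On the log2 scale it rose by 0.92 in WT (SE 0.18, adjusted p = 0.00643) and by 0.65 in KO (SE 0.18, adjusted p = 0.0341), and the KO call was lost with DESeq2 (adjusted p = 0.0968), with FPKM, without KO control replicate 1 (0.45, adjusted p = 0.156) and without either KO TGF-β library (adjusted p = 0.133 and 0.131). The WT call of Col4a4 was lost without WT TGF-β replicate 2 (0.80, adjusted p = 0.0505). Its head-to-head neighbour Col4a3, which starts 72 bases away and is no member here, rose by 1.42 in WT (SE 0.20, adjusted p = 0.0017) and by 1.31 in KO (SE 0.21, adjusted p = 0.00348) on the log2 scale. The ratio of Col4a3 to Col4a4 in FPKM was 1.30 ± 0.0936 in WT control and 1.91 ± 0.0374 in WT TGF-β, and 1.34 ± 0.0642 and 1.90 ± 0.178 in the KO groups (SD, n = 2).

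The pair on the X chromosome was not called in either genotype. Col4a5 (chrX:141475385-141689234, plus strand), whose chain assembles with those of Col4a3 and Col4a4 or with that of Col4a6, was read at 370 and 390 CPM in WT control and at 426 in both WT TGF-β libraries. In KO it was read at 326 and 362 CPM in control and at 372 and 370 after TGF-β. The treated libraries were higher without overlap, but by little: the log2 fold change was 0.16 (95% interval 0.01 to 0.32, adjusted p = 0.102) in WT and 0.11 (95% interval -0.05 to 0.27, adjusted p = 0.266) in KO, and the latter turned to -0.04 on FPKM. Its neighbour Col4a6, which starts 1309 bases away, had log2 fold changes of -0.06 in the WT cells (adjusted p = 0.565) and -0.15 in the KO cells (adjusted p = 0.145).

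With these unequal responses the make-up of the collagen IV transcripts shifted. Of the summed FPKM of the 6 chains, Col4a1 and Col4a2 took 75.5% and 75.1% in the WT control libraries and 83.3% and 85.4% in WT TGF-β. In KO they took 76.1% and 71.3% in control and 82.0% and 83.5% after TGF-β. Col4a5 and Col4a6 together fell from 24.1% and 24.4% to 16.1% and 14.1% in WT, and from 23.6% and 28.1% to 17.3% and 16.0% in KO. The treated libraries did not overlap the control libraries in either share, whereas the genotypes overlapped both in control and after TGF-β. The pair of Col4a3 and Col4a4 stayed at 0.348% to 0.636% of the sum in all libraries. With counts divided by exon length in place of FPKM, the first share was 75.7 ± 0.390% in WT control and 84.6 ± 2.12% in WT TGF-β (SD, n = 2).

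**Figure D2:**
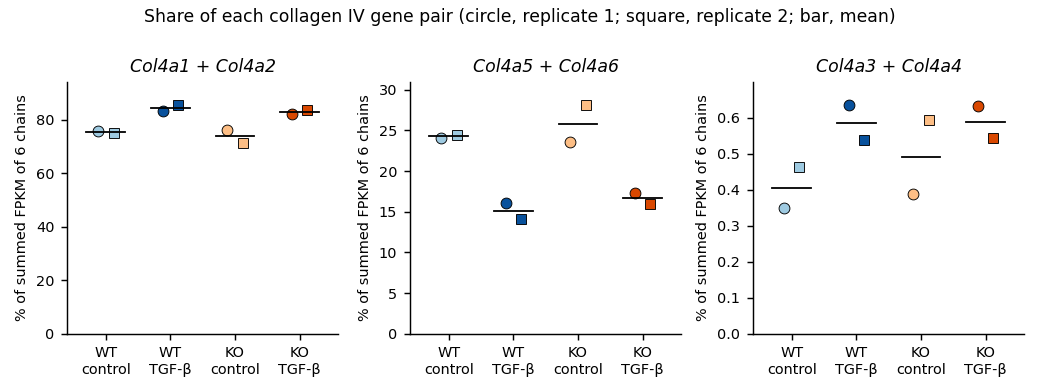
Share of each head-to-head gene pair in the summed FPKM of the 6 collagen IV chains (y axis, percent from 0, a different scale in each panel) by group, with 1 point per library and a bar at the group mean. The Col4a1 and Col4a2 share lies between 71.3% and 76.1% in control and between 82.0% and 85.4% after TGF-β.

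Collagen XVIII was higher after TGF-β by less than the fold limit. Col18a1 (chr10:77052178-77166548, minus strand) encodes a basement membrane collagen that carries heparan sulfate and whose end fragment is endostatin. Its levels were 397 and 310 CPM in WT control, 475 and 482 in WT TGF-β, 348 and 286 in KO control, and 414 and 458 in KO TGF-β. The treated groups lay above their controls without overlap, and the control replicates were far apart. The change was 0.44 on the log2 scale in WT (SE 0.13, adjusted p = 0.038) and 0.46 in KO (SE 0.13, adjusted p = 0.0348), so neither was called, and without WT control replicate 1 the WT value was 0.62 (adjusted p = 0.0145), past both limits. The other endostatin collagen, Col15a1, was far less abundant, at 0.218 ± 0.0823 FPKM in WT control (SD, n = 2), and was called in each genotype: it rose by 1.78 in WT (SE 0.39, adjusted p = 0.0106) and by 1.28 in KO (SE 0.37, adjusted p = 0.0357).

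Perlecan showed the largest response of the 9 genes in WT and was the only one of them called between genotypes. Hspg2 (chr4:137468769-137570630, plus strand, 14307 exonic bases) encodes the large proteoglycan that binds laminin, collagen IV and nidogen and holds growth factors on its heparan sulfate chains. It was read at 364 and 347 CPM in WT control and at 889 and 918 in WT TGF-β. In KO it was read at 259 and 304 CPM in control and at 503 and 545 after TGF-β. The 4 groups did not overlap, and in both states the WT libraries were the higher ones. TGF-β raised it by 1.35 on the log2 scale in WT (2.54-fold, SE 0.09, adjusted p = 0.000124) and by 0.90 in KO (1.86-fold, SE 0.09, adjusted p = 0.000539). With Bonferroni's correction the WT call held and the KO call did not (adjusted p = 0.126).

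Agrin rose in both genotypes, by less than perlecan. Agrn (chr4:156165290-156197488, minus strand) encodes the proteoglycan of synaptic and endfoot membranes that binds dystroglycan. Its levels were 353 and 321 CPM in WT control, 561 and 572 in WT TGF-β, 317 and 329 in KO control, and 485 and 517 in KO TGF-β. The treated libraries lay above the controls without overlap, the control libraries of the genotypes overlapped, and the WT TGF-β libraries lay above those of KO. It rose by 0.75 on the log2 scale in WT (SE 0.07, adjusted p = 0.000359) and by 0.63 in KO (SE 0.07, adjusted p = 0.000823), and the latter lies close to the fold limit and was under it with upper quartile normalization (0.55), without KO control replicate 1 (0.59) and without KO TGF-β replicate 2 (0.57). On FPKM neither Agrn response reached the limit (0.55 in WT and 0.46 in KO with a pseudocount of 0.1). Perlecan transcripts per agrin transcript, as a ratio of FPKM, were 0.515 ± 0.000755 in the WT control libraries, 0.780 ± 0.00810 in WT TGF-β, 0.418 ± 0.0270 in KO control and 0.506 ± 0.0171 in KO TGF-β (SD, n = 2).

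The nidogens did not rise. Nid2 (chr14:19751265-19811787, plus strand), which like its paralogue links laminin to collagen IV, was read at 225 and 221 CPM in WT control and at 196 and 174 in WT TGF-β. In KO it was read at 224 and 243 CPM in control and at 176 and 181 after TGF-β. The treated libraries lay below the controls in each genotype. The log2 fold change was -0.27 in WT (SE 0.07, adjusted p = 0.0265) and -0.39 in KO (SE 0.07, adjusted p = 0.00721), both past the limit on p and short of that on size. The gene shares 437 exonic bases, or 8.45%, with Rtraf on the other strand, whose unstranded reads cannot be told from its own.

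Nid1 (chr13:13437551-13512269, plus strand) was read at 247 and 270 CPM in WT control, 205 and 265 in WT TGF-β, 254 and 227 in KO control, and 214 and 215 in KO TGF-β. The WT groups overlapped, while in KO both treated libraries lay below both controls. The log2 fold change was -0.14 in WT (95% interval -0.41 to 0.14, adjusted p = 0.412) and -0.16 in KO (95% interval -0.44 to 0.11, adjusted p = 0.335), and the WT value was 0.04 without WT TGF-β replicate 1. Set against Col4a1, the summed FPKM of the nidogens was 0.586 ± 0.0235 in WT control and 0.271 ± 0.0111 in WT TGF-β, and 0.663 ± 0.0536 and 0.319 ± 0.0227 in the KO groups (SD, n = 2). The transcripts of the linker proteins were thus fewer relative to those of Col4a1 after TGF-β in both genotypes, in all 8 libraries without overlap.

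**Figure D3:**
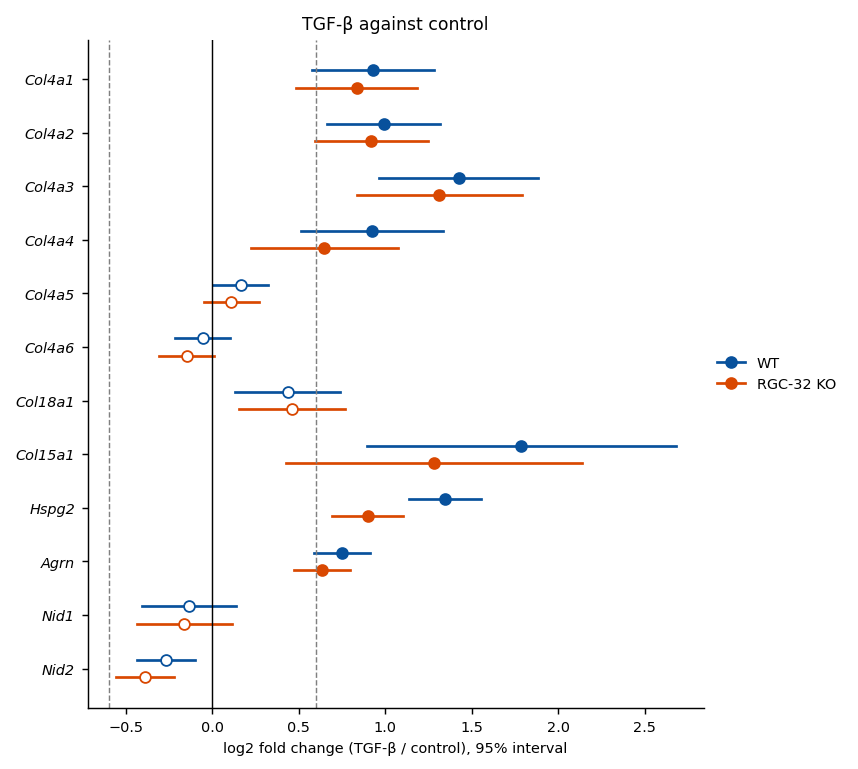
Log2 fold change of TGF-β against control (x axis) with its 95% interval for the 9 genes and for Col4a3, Col4a6 and Col15a1, in WT (blue) and KO (orange). Filled points passed both limits, open points did not, and dashed lines mark a log2 fold change of 0.6 in either direction; Hspg2 is the member farthest to the right in WT, at 1.35.

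Over the 9 genes, 5 were called up in WT (Col4a1, Col4a2, Col4a4, Hspg2 and Agrn), where 7.72% of all genes tested were called up. The same 5 were called up in KO, against 6.61% of all genes. None was called down, against 5.65% of all genes in WT and 4.93% in KO. By the adjusted p alone, Col18a1 joined the genes that were higher, making 6 in each genotype (18.6% of all genes in WT and 16.6% in KO), and Nid2 was the 1 gene that was lower in each (14.3% and 11.8%). The median log2 fold change of the 9 was 0.75 in WT and 0.63 in KO, while that of all genes was -0.00479 and 0.00311. The split of all called genes depends on the scaling, since 57.8% of those called in WT were up with TMM and 44.8% with upper quartile normalization, and in KO 57.3% and 45.5%. With upper quartile normalization 3 members stayed called in KO.

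Between genotypes, Hspg2 was the only member called, and only after TGF-β. After TGF-β the WT level was above that of KO by 0.79 on the log2 scale (1.72-fold, SE 0.09, 95% interval 0.58 to 0.99, adjusted p = 0.0451), where WT was called higher for 3 genes in all, or 0.0222% of those tested. The size of this difference was steady, between 0.72 and 0.86 under every alternative run, but the call was not. It held with DESeq2 (adjusted p = 1.19e-11), without a filter, with a stricter filter, with no fold limit and with upper quartile normalization (adjusted p = 0.0376), and was lost with limma-voom (0.0676), RLE normalization (0.0614), the replicate number as a block (0.0815), the 4 treated libraries alone (0.0681), FPKM, Bonferroni's correction and without any 1 of the 6 libraries other than those of KO control (0.0781 to 0.521). The largest of these values for Hspg2 came without WT TGF-β replicate 2.

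In the control state Hspg2 was also higher in WT, by 0.34 (SE 0.09, 95% interval 0.13 to 0.54), which did not pass (adjusted p = 0.505). No member was called between the control groups by edgeR, DESeq2 or limma-voom, and edgeR called WT higher for 0.00740% of all genes. In edgeR 1 member (Hspg2) had an unadjusted p under 0.05, against 6.84% of all genes. DESeq2 and limma-voom had 2 members each under that p, against 388 and 921 of 13509 genes. The response itself was larger in WT by 0.45 (SE 0.13, 95% interval 0.16 to 0.74), with an unadjusted p of 0.00745 in edgeR and an adjusted p of 1.00. For this difference of responses edgeR called 0 of all genes. Hspg2 was the 1 member with an unadjusted p under 0.05 and a larger response in WT, against 1.68% of all genes. These 3 comparisons share libraries with each other and with the responses above, so they are not separate evidence.

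For the other members the genotype difference after TGF-β was smaller, and none was called. With Hspg2 counted, 5 of the 9 had an unadjusted p under 0.05 in edgeR, the others being Col4a2, Col4a4, Col4a5 and Agrn. Of all genes 11.7% did. Col4a4 was 0.40 higher in WT (95% interval 0.00113 to 0.79, adjusted p = 0.428) and Col4a2 0.38 higher (95% interval 0.06 to 0.71, adjusted p = 0.356). Col4a1 was 0.31 higher (95% interval -0.04 to 0.66, adjusted p = 0.478), Col4a5 0.20 higher (95% interval 0.04 to 0.36, adjusted p = 0.326) and Agrn 0.18 higher (95% interval 0.02 to 0.34, adjusted p = 0.387). Col18a1, Nid1 and Nid2 were at 0.13, 0.13 and 0.05. All 9 values were above 0, against 49.9% of all genes, and in control 8 were, against 52.4%. For 6 members both WT TGF-β libraries lay above both KO TGF-β libraries, which was so for 22.4% of all genes. In control the same held for 4 members (Col4a1, Col4a2, Col4a5 and Hspg2), against 17.4% of all genes. The intervals leave room for differences of up to 0.79 for Col4a4 and of 0.22 for Nid2 after TGF-β, so equality of the genotypes is not shown. The interaction of members other than Hspg2 ran from -0.03 to 0.28, with adjusted p = 1.00 for each, and none was called by edgeR, DESeq2 or limma-voom. Each of these tools called 0 of all 13509 genes in the interaction, so the lack of a call is not particular to the members.

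**Figure D4:**
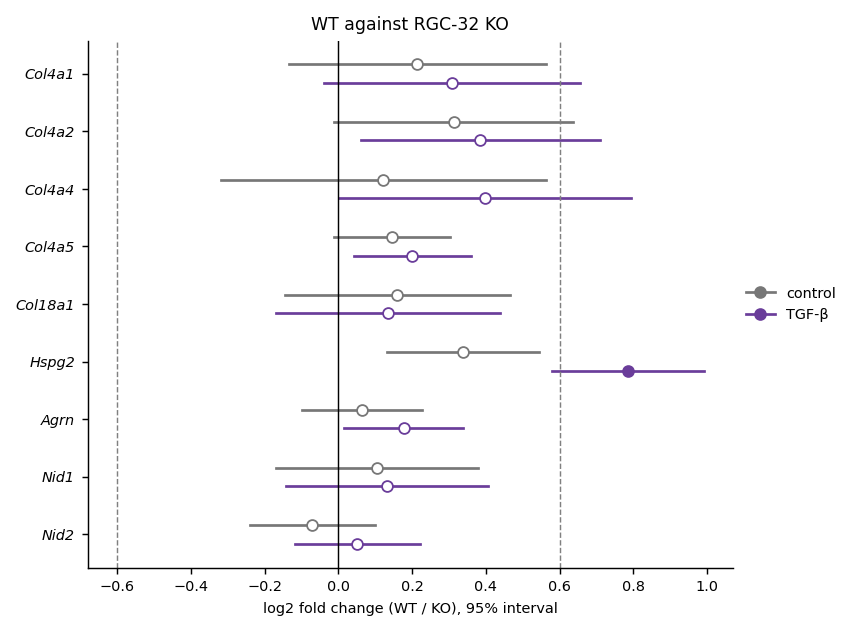
Log2 fold change of WT against KO (x axis) with its 95% interval for the 9 genes in control (grey) and after TGF-β (purple). The filled point, Hspg2 after TGF-β at 0.79, passed both limits; the others did not, and dashed lines mark a log2 fold change of 0.6 in either direction.

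The summed markers of some other cells also differed between the groups, not all in the direction of the members that rose. Of 12 meningeal fibroblast markers 9 were tested, and their summed level was 4285 to 5497 CPM in WT control, 8763 to 9865 in WT TGF-β, 3505 to 3696 in KO control and 6484 to 6651 in KO TGF-β, the same order of groups as for Hspg2. Most of it came from Col1a1, Col1a2 and Col3a1. The other 6 (Dcn, Lum, Pdgfra, Foxc1, Tbx18 and Islr) summed to 634 to 701 CPM in WT control and 548 to 569 in KO control. Their sum was lower after TGF-β, at 452 to 471 in WT and 412 to 475 in KO, where the genotypes overlapped. The single markers did not all overlap there. In WT against KO after TGF-β, Tbx18 (log2 fold change 0.58) and Lum (0.31) were higher and Pdgfra (-0.31) lower without overlap. Dcn, Foxc1 and Islr overlapped, and none of the 6 was called between genotypes. Slc6a13 was too low to test, Slc22a6 and Dpt were not in the count table, and the study's methods state that the meninges were taken off before culture. The summed astrocyte markers ran the other way, from 4228 to 4463 CPM in WT control and 3333 to 3465 in WT TGF-β, against 4913 to 5630 and 4143 to 4450 in the KO groups. Pericyte and mural cell markers, 5 of 8 tested, summed to 153 to 188 CPM in the control libraries and 388 to 627 after TGF-β, with Kcnj8, Abcc9 and Higd1b not in the count table. Of the 5, Cspg4 (3.13 in WT and 2.69 in KO), Anpep (1.12 and 1.57) and Pdgfrb (1.02 and 0.89) were called up in each genotype. Rgs5 was at 0.17 and 0.03, and Vtn at -0.64 in WT (adjusted p = 0.0655) and called down in KO (-1.39, adjusted p = 0.00354). The part of these shifts in the changes of the basement membrane genes was not tested.

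The rest of the basement membrane was followed in lists of named genes, whose counts stand against the 7.72% of all genes called up in WT and the 6.61% in KO. Of the 11 laminin chains, which form the sheet that nidogens tie to collagen IV, 4 (36.4%) were called up in each genotype and none down: Lama1 (3.04 in WT and 2.73 in KO on the log2 scale), Lama2 (1.48 and 1.17), Lamc1 (1.08 and 0.84) and Lamb1 (1.03 and 0.97). The median of the list was 0.48 in WT and 0.36 in KO. Of 17 other basement membrane proteins tested, 3 (17.6%) were called up in WT, namely Fbln2 (2.48), Smoc2 (0.93) and Fras1 (0.63, against 0.20 in KO), and none down. In KO 4 of them (23.5%) were called up, namely Thbs4 (3.53, with very few reads in control, against 2.38 in WT), Fbln2 (2.15), Smoc2 (0.99) and Sparc (0.64, against 0.54 in WT), and none down, and the list medians were 0.34 and 0.20. Of 12 receptors 2 (16.7%) were called up in WT and 1 (8.33%) in KO, with 1 down in each. The collagen-binding integrin Itga2 was called up in both genotypes (2.10 in WT and 1.85 in KO) and its partner Itgb1 in WT (0.64), with 0.59 in KO just under the fold limit (adjusted p = 0.00573). The agrin receptor kinase Musk was called down in WT (-1.02) and was at -0.88 in KO (adjusted p = 0.0524). The laminin-binding Itgb4 was called down in KO (-0.84) and was at -0.69 in WT (adjusted p = 0.0525). The medians of the receptors were 0.13 in WT and 0.04 in KO.

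Several genes that make, decorate and cut these proteins were called up. For the folding, modification and cross-linking of collagen, 10 of 15 genes (66.7%) were called up in WT and 9 (60.0%) in KO, against 7.72% and 6.61% of all genes, with none down and medians of 0.69 and 0.76. They were led by the lysyl oxidases Lox (2.88 and 2.71), Loxl1 (2.27 and 2.31) and Loxl2 (2.21 and 2.10) and the lysyl hydroxylase Plod2 (1.67 and 1.64). Pxdn, the peroxidase that forms the sulfilimine bonds of the collagen IV network, was called up in WT (0.64, SE 0.07, adjusted p = 0.000605) and lay just under the fold limit in KO (0.59, SE 0.07, adjusted p = 0.00103). For heparan sulfate synthesis and editing 4 of 17 genes (23.5%) were called up in each genotype and none down, with medians of 0.33 and 0.34, and they were Xylt1 (1.58 and 1.17), which starts the sugar chain on the core protein, Ext1 (1.36 and 1.43), which lengthens it, Glce (0.79 and 0.69) and Hs6st1 (0.68 and 0.79).

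In the list of basement membrane proteolysis 9 of 18 genes (50%) were called up in WT and none down, and in KO 9 up and 1 down (Mmp15, -0.65, against -0.44 in WT), with medians of 0.63 and 0.66. The largest in WT were the protease Adamts4 (2.47 in WT and 2.13 in KO), the inhibitor Timp1 (2.45 and 2.31), Prss12, the neurotrypsin that cuts agrin (1.96 and 2.25), and the inhibitor Timp3 (1.62 and 1.53). The proteases and inhibitors called in WT were thus all called up. The other 9 genes, among them the inhibitors Timp2 (-0.13) and Timp4 (-0.38), were not called in WT. Of the 18 genes 12 were above 0 in WT. Of the 90 genes tested in these 6 lists, edgeR called 0 in either comparison of the genotypes or in the interaction, with 12 in control, 22 after TGF-β and 2 in the interaction at an unadjusted p under 0.05. Of all genes 6.84% in control, 11.7% after TGF-β and 2.82% in the interaction were under that p. Calls by edgeR were rare over all 13509 genes too. They were 1 higher and 4 lower in WT in control, 3 higher and 3 lower after TGF-β, and 0 in the interaction. The 0 calls among the 90 genes thus do not set these lists apart. With limma-voom no gene of the lists was called either, and with DESeq2 there was 1, Fbln2 after TGF-β (adjusted p = 2.92e-05).

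**Figure D5:**
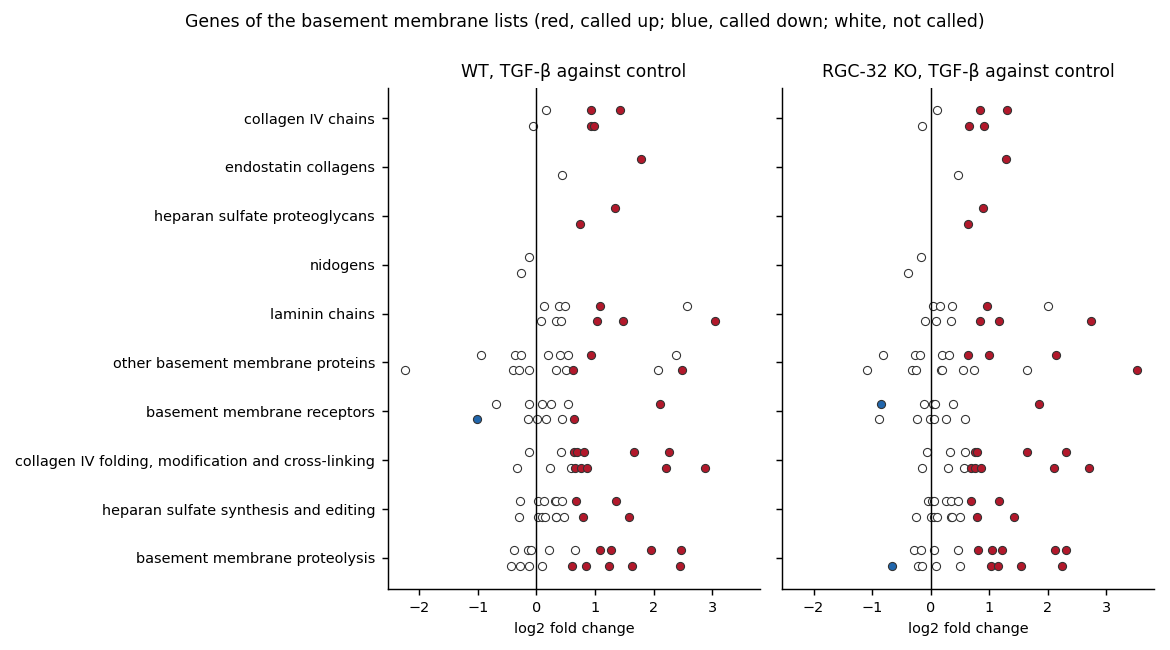
Log2 fold change of TGF-β against control (x axis) for each tested gene of the basement membrane lists (rows) in WT (left) and KO (right), with 1 point per gene. Red points were called up, blue points down and white points neither; the 2 nidogens are white and below 0 in both genotypes, while 10 of 15 genes of collagen folding and cross-linking are red in WT.

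The genes whose log2 CPM followed Hspg2 most closely over the 8 libraries were Usp34 (Pearson r = 0.996), Ern1 (0.994) and Heatr5a (0.994). None of them reached its size of response, with log2 fold changes in WT of 0.46, 0.49 and 0.76. For Col4a1 they were Zfpm1 (0.998), Greb1 (0.997) and the laminin chain Lama2 (0.996), with 0.98, 0.98 and 1.48 in WT. These are the 3 highest of 13509 genes in each case, over libraries that fall into 4 groups. Among the members, Hspg2 was closest to Agrn (0.951) and Col4a4 (0.950), and Nid2 ran against Col4a1 (-0.924).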

How the data were processed

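Unstranded bulk RNA libraries of 8 astrocyte samples were analysed. The authors aligned reads with STAR in the VIPER pipeline (mm10, per the labels) and deposited whole-number read counts per gene, not normalized. The counting program, its annotation and the filter on genes are not given in the sources used here. The authors also deposited FPKM values, which the labels ascribe to Cufflinks, used for levels between genes and for an alternative. The deposited DESeq2 tables of the authors hold log2 fold changes and p-values and were not used.

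Counts were filtered (filterByExpr), scaled by TMM and fitted for all 8 libraries in 1 quasi-likelihood model of the 4 groups with edgeR 4.0.16 in R 4.3.3. Tests were two-sided, with Benjamini-Hochberg adjustment over 13509 genes. Calls needed an absolute log2 fold change of 0.6 and an adjusted p under 0.05. A prior count of 2 went into log2 CPM, and the fit was checked on simulated counts. Alternatives were limma 3.58.1 (voom, or log2 FPKM with pseudocounts 0.1 and 1), DESeq2 1.42.0, 4 libraries alone, other filters (none, or 10 counts in every library), the scalings RLE and upper quartile, no fold limit, Bonferroni's correction, a replicate block and leaving out each library. Totals of 14920561 to 18956038 counts set the precision. Gene positions are from GENCODE M21 (GRCm38).

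Members and gene lists were chosen with earlier results of these data known. Named genes are the 9 members and Rgcc, the relatives Col4a3, Col4a6 and Col15a1, the 3 genes most correlated with Hspg2 and with Col4a1, at most 4 called genes a list by size in WT, and markers. Pxdn, Mmp15, Timp2, Timp4 and the genes called in KO alone were named after their values were seen.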

Additional observations from a re-analysis of the deposited data

How the results depend on the processing

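Of 891 values of single members under the alternatives, 820 kept direction and call, 39 lost a call, 5 gained one and 27 turned direction. In WT the 5 members called up became 1 with Bonferroni's correction and 3 on FPKM with a pseudocount of 1, and 4 to 6 on leaving out 1 library. In KO the 5 became 3 with upper quartile normalization and with either FPKM pseudocount, 0 with Bonferroni's correction, and 2 to 5 on leaving out 1 library, with 2 without TGF-β replicate 2 and 3 without control replicate 1. Without KO TGF-β replicate 2, Col4a1 (adjusted p = 0.0502), Col4a4 and Agrn lost the call. With no fold limit 1 member, Nid2, was called down in each genotype. After TGF-β the 1 member called higher in WT became 0 with limma-voom, 4 libraries, RLE, Bonferroni's correction, FPKM with either pseudocount and the replicate block, and 0 to 1 on leaving out 1 library. The cause was not tested.

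The replicate number as a block left 5 members called up in each genotype (957 up and 659 down of all genes in WT, 814 and 555 in KO) and took the call of Hspg2 between genotypes (adjusted p = 0.0815). Deviations of same-numbered libraries correlated at -0.343 (WT) and -0.348 (KO) between control and TGF-β, and at 0.491 (control) and 0.253 (TGF-β) between WT and KO. WT TGF-β with KO control gave -0.507, and WT control with KO TGF-β -0.483. The values were thus positive within a state and negative between states, and the numbers were not taken to pair the libraries. Crossed numbers, a pairing chosen after seeing the data, also left 5 and 5 members up (1167 up and 938 down in WT, 1040 and 812 in KO). They were fitted for the responses to TGF-β only, so the call of Hspg2 between genotypes was not tried with them.

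On FPKM, Col4a5 turned to -0.04 in KO with either pseudocount (-0.0404 and -0.0395), Col4a4 between genotypes in control to -0.0571 and -0.0239, and the Col18a1 interaction to 0.0134 with both. Leaving out 1 library gave -0.348 to 0.0447 for Nid1 in WT; -0.0605 to 0.337 for Col4a4, -0.0291 to 0.328 for Col18a1 and -0.00622 to 0.131 for Agrn between genotypes in control; -0.0755 to 0.317 for Nid1 and -0.0296 to 0.126 for Nid2 after TGF-β; and interactions of -0.0966 to 0.275 for Col4a1, -0.0836 to 0.238 for Col4a2, -0.0223 to 0.132 for Col4a5, -0.191 to 0.164 for Col18a1 and -0.174 to 0.219 for Nid1. Over all genes, 1043 up and 763 down in WT became 143 and 31 with Bonferroni's correction, 2514 and 1936 with no fold limit, 518 and 583 on FPKM with a pseudocount of 1, and 714 and 486 without WT TGF-β replicate 2. In KO 893 and 666 became 119 and 22, 2243 and 1592, 459 and 565, and 617 and 436 without TGF-β replicate 2. FPKM with a pseudocount of 0.1 shifted the median gene by -0.12 in WT and -0.13 in KO. Depth limits Col4a4, with at most 178 counts, and Col15a1, with at most 130.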
